A study of Mus musculus with 8 samples.

Results

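Imprinted genes are transcribed mainly from the copy inherited from only 1 parent, and 37 of them that are active in embryonic growth were followed through the pancreatic bud of the mouse embryo. They were taken by name from the 24341 genes of the deposited table. From textbook knowledge, 23 are expressed from the paternal copy and 13 from the maternal copy, and Gnas gives rise to transcripts of both kinds. Total RNA was sequenced from 8 single pancreatic buds at E11.0, when embryos have about 40 somites. In 5 buds the genotype is labelled WT, and in 3 it is Pdx1Cre-early;Lats1f/f;Lats2f/f, called Lats1/2PanKO, in which Cre driven by the Pdx1 promoter removes both Hippo kinase genes from pancreatic progenitors and not from the surrounding cells. All 8 embryos are labelled CD1, and the methods name WT or heterozygous littermates as controls. According to the methods, forceps were used to strip the mesenchyme from each bud ahead of RNA isolation.

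Imprinted genes lie in domains that share a control region, in which DNA methylation laid down in the egg or sperm marks the parent of origin. Many paternally expressed genes, such as the growth factor gene Igf2, promote growth of the fetus, and many maternally expressed genes, such as the Igf2 scavenger receptor gene Igf2r, the adaptor gene Grb10 and the cell cycle inhibitor gene Cdkn1c, restrain it. Several domains also make a long noncoding RNA from the allele opposite to that of the coding genes. The libraries do not separate the parental alleles, so every value below is the sum of both copies. Whether each gene named as imprinted is so in the pancreatic bud was not measured.

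Values are FPKM, fragments scaled to transcript length and to the mapped fragments of the library, which can be compared between genes because they are set per length. The table carries no counts. Read from the steps between low values of single-exon genes, 1 fragment added 0.0980 to 0.106 FPKM to a transcript of 1 kilobase in most libraries but 0.130 FPKM in WT 5, or, had the values not been rescaled, 9.43e+06 to 1.02e+07 fragments in most libraries and 7.69e+06 in WT 5. These readings are rough, since only 13 to 19 of the 63 to 76 low genes per library lay on the steps. Between 16117 and 16982 genes were above 0 per library. Lats1 was lower in all 3 Lats1/2PanKO buds, at 12.3, 13.8 and 10.1 FPKM, than in the 5 WT buds, at 14.1 to 16.6 FPKM. The Lats1 difference was -0.35 on the log2 scale (SE 0.10, adjusted p = 0.269, limma), while Lats2 overlapped between genotypes at 11.1 to 13.4 FPKM against 11.6 to 14.7 FPKM. These values cover whole genes and not the deleted exons alone. Marker genes of epithelium were higher in Lats1/2PanKO, 18 of 18 by their mean and 16 of 18 without overlap, with a summed level of 242 to 314 FPKM in WT and of 556, 481 and 1164 FPKM in Lats1/2PanKO 1, 2 and 3. Over all tested genes, 4.46% lay entirely above WT. Of 19 tested mesenchyme markers 17 had a lower mean, with sums of 713 to 906 FPKM in WT and of 536, 731 and 345 FPKM in the mutant buds. All 12 endothelial markers had a lower mean, and their sums were 134 to 243 FPKM against 98.1 to 149 FPKM. The list of pancreatic progenitor markers includes Pdx1 and Ptf1a, and also the hormone gene Gcg and the acinar gene Cpa1. These markers were above 0 throughout, with sums of 760.2 to 998 FPKM in WT against 1002 to 2520.4 FPKM in Lats1/2PanKO. By the mean levels in the paper, Gcg was far above Pdx1 in both genotypes, so the sums mostly follow Gcg. By their mean 14 of 15 were higher, 5 of them without overlap, and no marker of these 4 lists was at 0 in all libraries. Liver markers were low, with sums of 14.8 to 31.6 FPKM in WT and 26.4, 23.8 and 63.3 FPKM in the mutant buds, and those of leukocytes and nerve overlapped between genotypes. All 9 tested red blood cell markers had a higher mean in Lats1/2PanKO, but their sums overlapped, at 2634 to 15768 FPKM in WT and 7965 to 10166 FPKM in Lats1/2PanKO. In whole buds, fewer cells of a type and less RNA per cell cannot be told apart.

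The start sites of the genes on which the comparison between genotypes turns are shown first. Each window runs from 250 bases before to 50 bases after a transcript start in RefSeq on GRCm38.p6, written 5′ to 3′ on the strand of the gene, and capitals mark CpG dinucleotides, the substrate of imprint methylation. Of the 37 genes, 31 had at least 1 such window and 49 windows were found in all. Ndn, Nnat and Igf2 are shown because their values did not overlap between genotypes, and Nap1l5 and Zim1 because they had the largest differences upward. The Usp29 window is shown because it shares 263 of its 300 bases with that of Peg3, which is read in the opposite direction. Ndn lies at chr7:62348027-62348326 on the plus strand and holds 11 CpG, Nnat at chr2:157559828-157560127 on the plus strand with 17, and Nap1l5 at chr6:58907077-58907376 on the minus strand with 17. The Zim1 window lies at chr7:6696383-6696682 on the minus strand with 20 CpG, the Usp29 window at chr7:6730333-6730632 on the plus strand with 17, and the most CpG-rich of the 4 Igf2 windows at chr7:142658755-142659054 on the minus strand with 24.
Ndn: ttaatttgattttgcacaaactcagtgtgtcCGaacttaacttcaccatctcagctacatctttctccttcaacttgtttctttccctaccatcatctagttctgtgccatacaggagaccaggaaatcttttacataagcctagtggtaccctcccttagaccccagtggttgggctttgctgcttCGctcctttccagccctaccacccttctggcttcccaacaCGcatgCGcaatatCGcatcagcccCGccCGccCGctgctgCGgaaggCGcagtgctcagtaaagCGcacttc
Nnat: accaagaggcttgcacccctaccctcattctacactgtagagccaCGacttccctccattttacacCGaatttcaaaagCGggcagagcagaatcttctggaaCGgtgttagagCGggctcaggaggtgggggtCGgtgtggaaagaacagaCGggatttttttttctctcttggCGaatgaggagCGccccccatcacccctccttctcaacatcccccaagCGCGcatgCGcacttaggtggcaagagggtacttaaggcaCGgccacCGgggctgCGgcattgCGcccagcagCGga
Igf2: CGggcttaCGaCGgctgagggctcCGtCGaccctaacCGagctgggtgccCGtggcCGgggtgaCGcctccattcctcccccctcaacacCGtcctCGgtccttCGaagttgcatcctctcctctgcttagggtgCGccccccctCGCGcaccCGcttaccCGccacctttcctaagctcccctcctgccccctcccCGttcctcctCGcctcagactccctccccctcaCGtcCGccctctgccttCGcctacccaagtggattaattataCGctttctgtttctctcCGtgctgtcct
Nap1l5: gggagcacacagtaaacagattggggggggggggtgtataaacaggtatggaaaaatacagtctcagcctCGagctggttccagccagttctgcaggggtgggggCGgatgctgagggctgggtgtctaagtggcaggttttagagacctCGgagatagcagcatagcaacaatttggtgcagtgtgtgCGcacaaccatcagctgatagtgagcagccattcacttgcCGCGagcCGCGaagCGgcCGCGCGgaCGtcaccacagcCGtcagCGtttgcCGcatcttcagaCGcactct
Zim1: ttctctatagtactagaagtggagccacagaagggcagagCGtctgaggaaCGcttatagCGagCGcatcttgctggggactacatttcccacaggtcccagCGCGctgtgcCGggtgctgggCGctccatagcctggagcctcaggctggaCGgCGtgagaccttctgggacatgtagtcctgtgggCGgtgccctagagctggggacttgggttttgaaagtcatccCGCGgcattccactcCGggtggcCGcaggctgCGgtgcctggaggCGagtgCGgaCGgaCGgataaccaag
Usp29: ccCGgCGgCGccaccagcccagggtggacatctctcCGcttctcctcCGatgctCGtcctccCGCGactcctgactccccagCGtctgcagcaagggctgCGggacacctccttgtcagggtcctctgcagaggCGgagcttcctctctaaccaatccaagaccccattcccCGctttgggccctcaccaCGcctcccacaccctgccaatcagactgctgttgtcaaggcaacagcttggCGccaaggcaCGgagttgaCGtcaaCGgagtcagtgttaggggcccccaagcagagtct

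The median number of CpG was 12 over the 49 member windows, against 20 over the windows of tested genes and 7 over all 32851 windows. TGCCGC, the core motif of ZFP57, a zinc finger protein that holds methylation at imprinted control regions, was searched on both strands. It occurred in 24.5% of member windows, 30.0% of paternal and 20% of maternal ones, against 19.04% of the windows of tested genes and 11.6% of all windows. Among the windows shown, Nap1l5 held it 2 times, Nnat and Zim1 once each, and the Ndn, Usp29 and Igf2 windows not at all. GGAATG, the core motif of the TEAD factors through which the Hippo pathway acts, was in 20.4% of member windows, against 12.4% of those of tested genes and 14.7% of all. The windows of Zim1, Usp29 and Igf2 each held it once, and those of Ndn, Nnat and Nap1l5 not at all. Some member windows share sequence and were each counted, and the shares were not corrected for this. Snrpn and Snurf have a window in common that held both motifs. Overlapping windows of Mest each held TGCCGC, and the overlapping windows of Peg3 and Usp29 each held GGAATG. These counts describe letters in a window and no binding was measured.

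Several imprinted genes were among the most abundant transcripts of the WT bud. H19, the maternally expressed noncoding RNA downstream of Igf2 at chr7:142575530-142578146, had a WT mean of 2639 ± 490.5 FPKM (SD, n = 5) and ranked 17 among all genes. It was followed by Gnas, which encodes the stimulatory G protein alpha subunit, at 942 ± 49.5 FPKM (rank 83), and by Igf2 at 651 ± 70.6 FPKM (rank 141). Peg3, a paternally expressed zinc finger gene, had a mean of 485 ± 29.5 FPKM and Grb10, which encodes an inhibitor of insulin and IGF receptor signaling, one of 444 ± 19.7 FPKM. These neighbours in the order overlap in single buds, since Peg3 ranged from 449.7 to 527 FPKM and Grb10 from 424 to 476 FPKM, whereas every Gnas value was above every Igf2 value. Mest, a gene for a hydrolase-like membrane protein, stood at 320.5 ± 34.0 FPKM, and Nnat, a gene for a small membrane proteolipid located within an intron of Blcap, at 235 ± 16.2 FPKM. Cdkn1c averaged 199 ± 39.1 FPKM and the retrotransposon-derived gene Peg10 averaged 162 ± 18.0 FPKM. Igf2r (111 FPKM), Meg3 (93.0), Plagl1 (90.6), Rian (81.9), Dlk1 (71.2) and Ndn (65.6) followed, with WT ranges that overlapped from each to the next.

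At the low end, Slc22a18, Dio3 and Ascl2 averaged 0.249, 0.340 and 0.455 FPKM in WT. Slc22a18 encodes a transporter, Dio3 the deiodinase that inactivates thyroid hormone, and Ascl2 a transcription factor best known in the placenta. These 3 genes had a mean under 0.5 FPKM over the 8 libraries and were not tested, which leaves 34 of 37. Phlda2, a restrainer of placental growth, was listed at 0 in WT 3 and reached 6.26 FPKM in WT 4. Magel2, Mkrn3, Snurf and Nap1l5 had WT means of 1.75 to 2.76 FPKM.

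**Figure D1:**
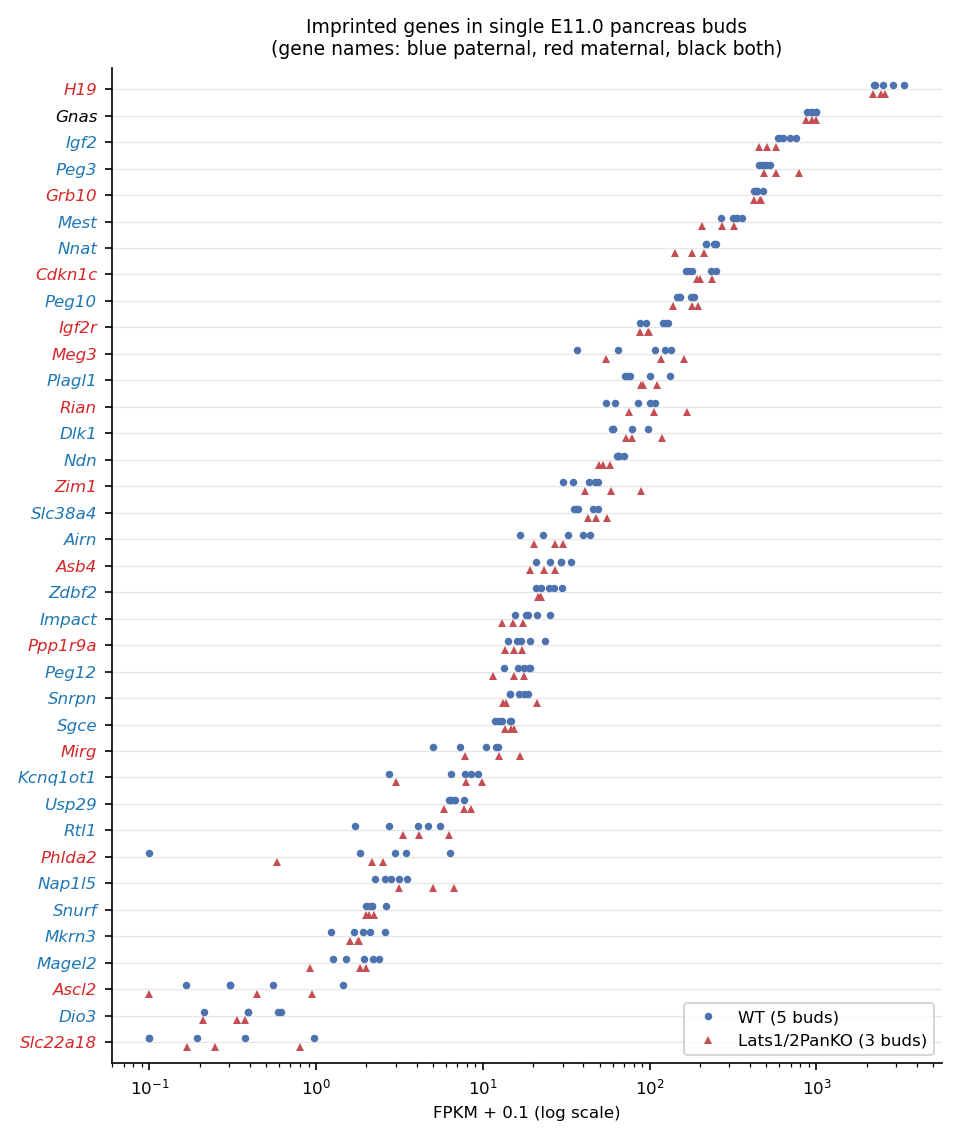
FPKM of the 37 imprinted genes in each bud, plus 0.1 so that values of 0 can be drawn, on a logarithmic axis, with 5 WT buds as circles and 3 Lats1/2PanKO buds as triangles, ordered by WT mean. The genes span from H19, at a WT mean of 2639 FPKM, to Slc22a18, at 0.249 FPKM, and only for Igf2, Nnat and Ndn do all triangles lie to the left of all circles.

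No imprinted gene passed the test between genotypes. At an adjusted p under 0.05 (limma on log2 of FPKM + 1, adjusted over all 13777 tested genes), 0 of 34 genes were called, where the share over all tested genes was 0.0145%, or 2 genes. At an unadjusted p under 0.05 there were 6 of 34 (17.6%). Of these, 4 were lower in Lats1/2PanKO (Ndn, Nnat, Igf2 and Impact), where 4.99% of all genes were, and 2 were higher (Nap1l5 and Zim1), where 6.29% of all genes were. Without Lats1/2PanKO 3, 3 of 34 were at that level (8.82%, against 5.70% of all genes), namely Nnat, Ndn and Snrpn. The 3 genes whose mutant values all lay below all WT values, Ndn, Nnat and Igf2, are 8.82% of the 34, where 3.06% of all genes behaved so, and 0 of 34 lay entirely above WT, where 4.46% of all genes did. In either direction the share was thus 8.82%, close to the 7.51% of all genes. Without WT 4 the number with no overlap in either direction was 5 (14.7%, against 11.1% of all genes), and without Lats1/2PanKO 2 it was 8 (23.5%, against 19.4%). The labels do not say which embryos were littermates, and the p-values measure the spread between these 8 buds.

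Ndn, which encodes necdin, a growth suppressor of the MAGE family, had the smallest p of the 34. This intronless paternally expressed gene at chr7:62348277-62349928 was measured at 64.7, 63.9, 69.6, 65.6 and 64.4 FPKM in the 5 WT buds and at 52.6, 57.9 and 49.7 FPKM in the mutant buds. The WT values lay within a coefficient of variation of 3.52%, and every mutant bud lay below them. The mean was 53.4 ± 4.15 FPKM (SD, n = 3) in Lats1/2PanKO against 65.6 ± 2.31 FPKM, a ratio of 0.814. The log2 difference was -0.29 (SE 0.06, adjusted p = 0.154, limma), and the exact two-sided permutation test gave 0.0179, the smallest p that 56 choices of 3 buds out of 8 allow. Ndn alone of the 34 passed under an alternative, with limma's array weights at an adjusted p of 0.0286, and its adjusted p ran up to 0.478 over the 16 alternatives.

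Nnat (chr2:157560078-157562525) was measured at 246, 251, 219, 243 and 217 FPKM in WT. In Lats1/2PanKO it was at 179, 210.1 and 141 FPKM. The highest mutant bud, Lats1/2PanKO 2, came close to the lowest WT bud, and Lats1/2PanKO 3 was farthest away. The mutant mean of 177 ± 34.6 FPKM was 0.751 of that in WT, a log2 difference of -0.43 (SE 0.12, adjusted p = 0.266, limma; exact permutation p = 0.0179), which was -0.28 without Lats1/2PanKO 3. Blcap, the gene in whose intron Nnat lies, overlapped between genotypes at 7.99 to 11.05 FPKM in WT and 7.37 to 10.5 FPKM in Lats1/2PanKO, with a log2 difference of -0.06.

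Igf2 (chr7:142650768-142666816), the main growth factor of the fetus among these genes, was at 631, 595, 695, 585 and 752 FPKM in WT and at 502, 568 and 455 FPKM in Lats1/2PanKO. The groups were separated by the narrow gap between WT 4 and Lats1/2PanKO 2. Its mutant mean of 508 ± 56.9 FPKM was 0.780 of the WT mean, a log2 difference of -0.36 (SE 0.11, adjusted p = 0.306, limma; exact permutation p = 0.0357) that was -0.28 without Lats1/2PanKO 3. Across the 3 mutant buds, Igf2, Nnat and Ndn had the same order as the mesenchyme sum, highest in Lats1/2PanKO 2 and lowest in Lats1/2PanKO 3. Across the WT buds the 3 genes differed in this. Nnat was highest in WT 2 (251 FPKM), where the mesenchyme sum was lowest (713 FPKM). It was lowest in WT 5 and WT 3 (217 and 219 FPKM), where that sum was highest (885 and 906 FPKM). Ndn, like that sum, was highest in WT 3 (69.6 FPKM) and lowest in WT 2 (63.9 FPKM). Igf2 was highest in WT 5 and WT 3 (752 and 695 FPKM) and lowest in WT 4 (585 FPKM), where that sum was 790 FPKM. Across WT buds the sum did not follow the typical marker. The median log2 deviation of the 19 tested mesenchyme markers from their WT means was highest in WT 2 (0.28) and lowest in WT 3 (-0.24). Against this median, the relation of Nnat and of Ndn in WT 2 and WT 3 was the reverse of that against the sum. In Lats1/2PanKO 1, 2 and 3 the median was -0.30, -0.20 and -0.83, the same order as the sum. The part of cell composition in these values was not tested.

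H19, which shares enhancers with Igf2, was measured at 2233, 2203, 2896, 2499.7 and 3361 FPKM in WT. In Lats1/2PanKO it was at 2189.9, 2426 and 2565 FPKM. The mutant values lay almost wholly inside the WT range, with a mean of 2394 ± 189.8 FPKM and a log2 difference of -0.12 (SE 0.18, adjusted p = 0.844, limma; exact permutation p = 0.464). The ratio of Igf2 to H19 within a bud was 0.224 to 0.282 in WT and 0.229, 0.234 and 0.177 in Lats1/2PanKO 1, 2 and 3, so that only the last lay outside the WT range. Igf2r (chr17:12682406-12769706), whose product carries IGF2 to the lysosome, was at 87.2 to 128 FPKM in WT and at 87.5 to 99.0 FPKM in Lats1/2PanKO (log2 difference -0.21, SE 0.13, adjusted p = 0.604, limma). The ratio of Igf2r to Igf2 averaged 0.171 ± 0.0318 in WT and 0.187 ± 0.0139 in Lats1/2PanKO.

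**Figure D2:**
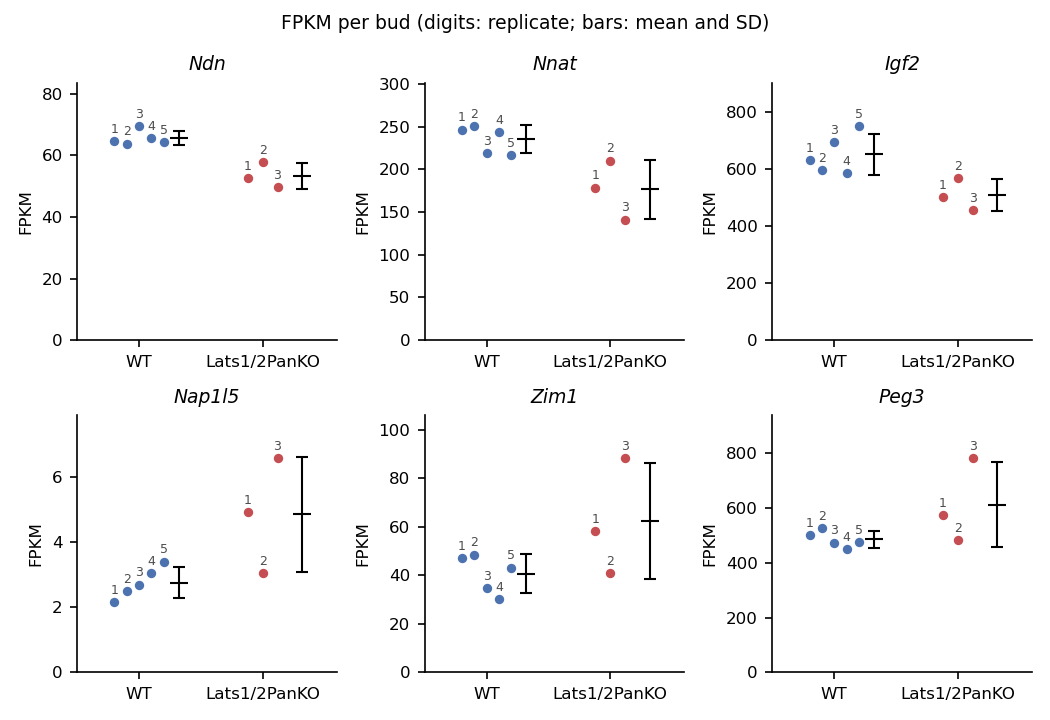
FPKM in each bud for Ndn, Nnat, Igf2, Nap1l5, Zim1 and Peg3, with the replicate number at each point and the mean and SD of each genotype beside the points. The mutant buds lie below all WT buds for the first 3 genes, whereas for the other 3 Lats1/2PanKO 2 lies within the WT range and Lats1/2PanKO 3 is the highest bud.

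Nap1l5, an intronless gene for a nucleosome assembly protein inside an intron of Herc3 (chr6:58905233-58907126), was at 2.15, 2.49, 2.69, 3.05 and 3.40 FPKM in WT and at 4.93, 3.05 and 6.58 FPKM in Lats1/2PanKO. Mutant buds 1 and 3 were above all WT buds, and bud 2 was within their range. The log2 difference was 0.60 (SE 0.20, adjusted p = 0.329, limma; exact permutation p = 0.0536), with means of 4.85 ± 1.77 and 2.76 ± 0.485 FPKM, and was 0.39 without Lats1/2PanKO 3. At this level the added 1 FPKM makes the log2 difference understate the ratio of means, which was 1.76. Herc3, the host gene, stood at 2.26 to 3.53 FPKM in WT and 2.68 to 3.34 FPKM in Lats1/2PanKO.

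The Peg3 domain on chromosome 7 holds the paternally expressed Peg3 and Usp29, which start back to back in the window shown above, and the maternally expressed zinc finger gene Zim1 next to them. All 3 had a higher mean in Lats1/2PanKO, also under both other scalings of the libraries, with a median log2 difference of 0.31 that was 0.12 without Lats1/2PanKO 3. Zim1 (chr7:6674444-6696540) was at 47.2, 48.5, 34.7, 30.1 and 43.1 FPKM in WT and at 58.1, 40.8 and 88.3 FPKM in Lats1/2PanKO. Its log2 difference was 0.56 (SE 0.24, adjusted p = 0.427, limma; exact permutation p = 0.107), and it was 0.27 without Lats1/2PanKO 3, the bud that held the highest value.

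Peg3 (chr7:6703892-6730462) was at 499.5, 527, 473, 449.7 and 476 FPKM in WT and at 573, 482 and 782 FPKM in Lats1/2PanKO. The mutant mean of 612 ± 154 FPKM had an SD several times that of WT, and bud 2 lay inside the WT range. The log2 difference was 0.31 (SE 0.14, adjusted p = 0.471, limma; exact permutation p = 0.0536) and 0.12 without Lats1/2PanKO 3. Usp29, a gene for a ubiquitin-specific protease, was far less abundant at 6.61 ± 0.575 FPKM in WT and 7.25 ± 1.35 FPKM in Lats1/2PanKO (log2 difference 0.11, SE 0.12). Although the starts of both genes lie within a shared window, Peg3 exceeded Usp29 by a factor of 62.8 to 82.8 in WT buds and 75.4 to 93.1 in mutant buds.

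Of the other abundant genes, Mest (chr6:30733506-30748466) was at 315, 266, 357, 329.7 and 335 FPKM in WT and at 271, 320.0 and 206 FPKM in Lats1/2PanKO. Its groups overlapped, with a log2 difference of -0.29 (SE 0.14, adjusted p = 0.517, limma; exact permutation p = 0.125) that was -0.11 without Lats1/2PanKO 3. Impact (chr18:12954690-12992950), whose product restrains the amino acid stress kinase GCN2, was at 18.1, 25.2, 18.6, 15.4 and 21.0 FPKM in WT and at 17.2, 15.1 and 12.9 FPKM in mutant buds. Bud 1 lay within the WT range, bud 2 just below it and bud 3 farther below. The log2 difference was -0.35 (SE 0.15, adjusted p = 0.419, limma; exact permutation p = 0.0893), and it was -0.25 without Lats1/2PanKO 3.

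The growth-restraining genes Grb10 and Cdkn1c, and Gnas, differed little. Grb10 (chr11:11930499-12037428) was at 424, 439, 443, 436 and 476 FPKM in WT and at 422, 458 and 465 FPKM in Lats1/2PanKO, a log2 difference of 0.02 (SE 0.07, adjusted p = 0.955, limma; exact permutation p = 0.75). Cdkn1c (chr7:143458339-143461059) was at 233, 249, 172, 178 and 164 FPKM in WT and at 200.1, 191 and 235 FPKM in mutant buds, a log2 difference of 0.08 (SE 0.15, adjusted p = 0.888, limma; exact permutation p = 0.607). Gnas (chr2:174284320-174346744) was at 992, 988, 873, 936 and 923 FPKM in WT and at 938, 868 and 988 FPKM in mutant buds, a log2 difference of -0.02 (SE 0.09, adjusted p = 0.961, limma; exact permutation p = 0.821) that was 0.02 after quantile normalization. The groups overlapped for all 3 genes, with Lats1/2PanKO 1 the lowest of all buds for Grb10 and Lats1/2PanKO 2 the lowest for Gnas, each just below the WT range.

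Set side by side, the paternally and maternally expressed genes had similar medians. Of 22 tested paternal genes 9 had a higher and 13 a lower mean in Lats1/2PanKO, with a median log2 difference of -0.05. At an unadjusted p under 0.05, 1 was higher and 4 were lower (22.7%, against 11.3% of all tested genes). Of 11 tested maternal genes 6 were higher and 5 lower, with a median of 0.02 and 1 higher (Zim1) and 0 lower at that level (9.09%). Over all 13777 tested genes 6461 were higher and 7316 lower, with a median of -0.01. The summed level of the 23 paternal genes was 2109 to 2330.1 FPKM in WT and 2102 to 2237 FPKM in Lats1/2PanKO. That of the 13 maternal genes, most of it H19, was 3331 to 4454 FPKM in WT and 3245 to 3833 FPKM in Lats1/2PanKO. Both medians were near enough to 0 for their sign to turn. The maternal median was -0.05 with array weights, -0.02 with the replicate number as a block, and -0.03, -0.01, -0.00057 and -0.00011 without WT 4, Lats1/2PanKO 3, WT 1 and Lats1/2PanKO 2, and the paternal median was 0.04 with array weights and 0.01 without Lats1/2PanKO 2.

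By domain, all 6 genes of the Snrpn-Ndn domain on chromosome 7, all of them paternal, had a lower mean, with a median log2 difference of -0.12 and summed levels of 100.1 to 110.2 FPKM in WT against 87.3, 93.8 and 86.4 FPKM in the mutant buds. Ndn carried most of this sum and of its difference. Peg12, a relative of the Wnt regulator Frat1, was at 16.9 ± 2.33 against 14.8 ± 3.09 FPKM, and Snrpn, a gene for a protein of the splicing machinery, at 16.3 ± 1.79 against 15.9 ± 4.43 FPKM. Magel2, a MAGE family gene, and Mkrn3, a gene for a ubiquitin ligase, reached at most 2.28 and 2.48 FPKM in any bud. Snurf, the upstream reading frame on the Snrpn transcript, was at 1.90 to 2.53 FPKM in WT, and because the pair share a transcript the split of reads between them is uncertain. Without Lats1/2PanKO 3 the median was -0.04, with Ndn at -0.25, Snrpn at -0.26, Peg12 and Snurf at -0.03, Mkrn3 at -0.04 and Magel2 at 0.04. The negative signs of the 6 genes held under both other scalings, but in at least 1 of the 16 alternatives those of Magel2, Mkrn3, Snrpn and Snurf turned.

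The Dlk1-Dio3 domain on chromosome 12 holds the paternally expressed Dlk1, a gene for a Notch ligand-like membrane protein, Rtl1 and Dio3, and the maternally expressed noncoding RNAs Meg3, Rian and Mirg. All 5 tested genes had a higher mean in Lats1/2PanKO, with a median log2 difference of 0.32 that ran from 0.26 (Meg3) to 0.47 (Rian), and none had an unadjusted p under 0.05. Dlk1 was at 78.6, 97.9, 60.2, 59.6 and 59.7 FPKM in WT and at 78.3, 71.9 and 118 FPKM in Lats1/2PanKO (adjusted p = 0.612, limma). The domain sum was 158 to 347 FPKM in WT and 317, 213 and 469.6 FPKM in the mutant buds, so only Lats1/2PanKO 3 was outside the WT range. All 5 signs held under both other scalings. Without Lats1/2PanKO 3 the median was 0.10, with Rian at 0.17, Mirg at 0.14, Dlk1 at 0.10, Rtl1 at 0.06 and Meg3 at -0.07. Without WT 4 the median was 0.19 and Meg3 was at -0.03, and without Lats1/2PanKO 2 the median was 0.65.

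In the H19-Igf2 and Igf2r domains both genes had a lower mean, with -0.12 for H19 and -0.36 for Igf2, and with -0.21 for Igf2r and -0.20 for Airn. The Peg10 and Kcnq1 domains held differences of both signs. In the Peg10 domain on chromosome 6, the paternal genes Peg10 and Sgce, which encodes epsilon-sarcoglycan, had log2 differences of 0.07 and 0.13. The maternal genes Ppp1r9a, for the actin-binding neurabin, and Asb4, for a ubiquitin ligase adaptor, had -0.20 and -0.24. Both are maternal in only part of the tissues. The adjusted p-values of the 4 genes of the domain ran from 0.609 to 0.890 (limma). In the Kcnq1 domain, Cdkn1c was at 0.08, the noncoding RNA Kcnq1ot1 at -0.05 and Phlda2 at -0.36 with an SE of 0.57, which was 0.01 without Lats1/2PanKO 3. Of single genes, the amino acid transporter gene Slc38a4 (0.25), the zinc finger gene Plagl1 (0.13) and the zinc finger gene Zdbf2 (-0.17) had adjusted p-values of 0.524, 0.862 and 0.619 (limma).

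**Figure D3:**
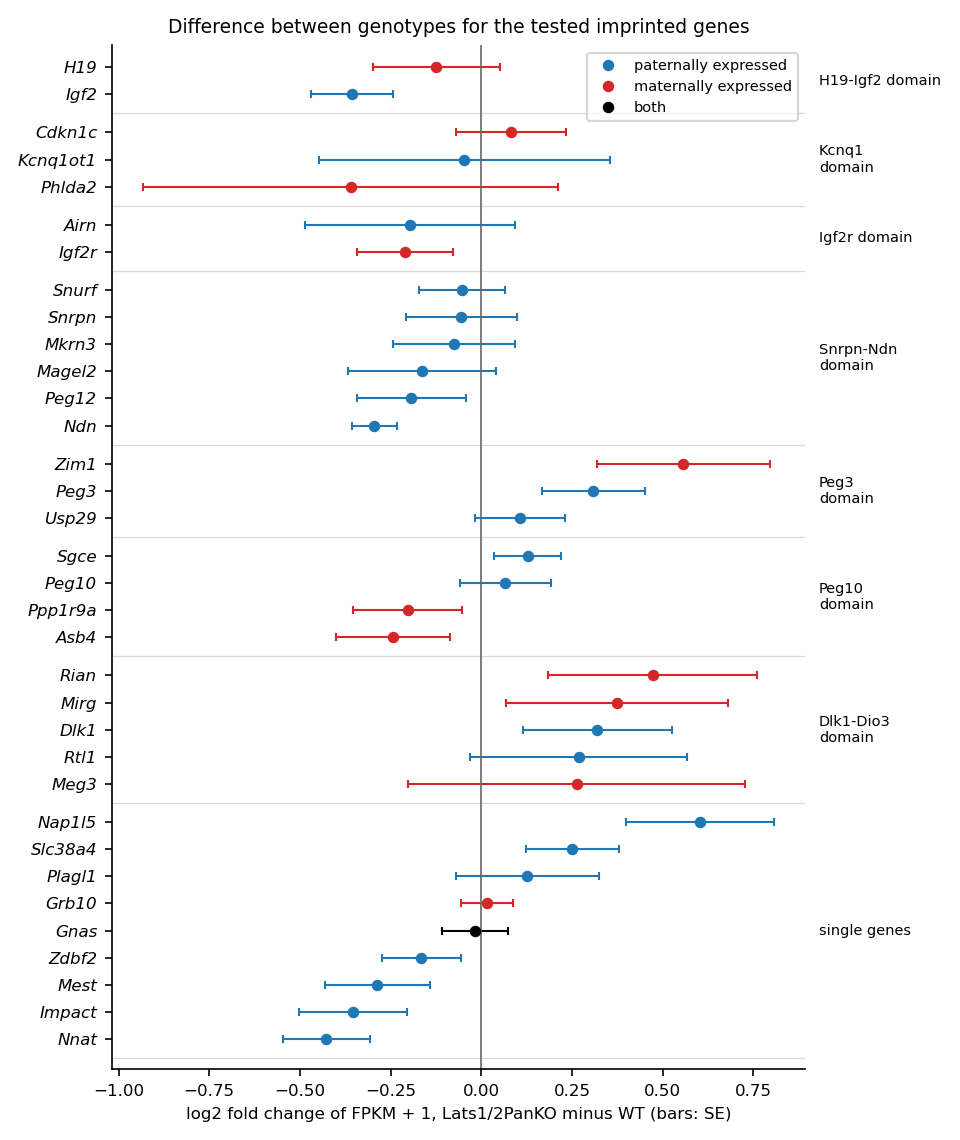
Log2 difference of FPKM + 1 between genotypes (Lats1/2PanKO minus WT) with its SE for the 34 tested imprinted genes, grouped by domain, paternally expressed genes in blue, maternally expressed ones in red and Gnas in black. All points of the Snrpn-Ndn domain lie left of 0 and all points of the Peg3 and Dlk1-Dio3 domains right of 0, with no gene past an adjusted p of 0.05.

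The members at an extreme were concentrated in a few buds. Lats1/2PanKO 3 held the lowest value of 8 genes (23.5% of 34, against 20.6% of all tested genes) and the highest of 13 (38.2%, against 20.5%). It was also the bud with the highest epithelial and the lowest mesenchymal marker sum, and how far these go together was not tested. WT 4 held the lowest value of 13 genes (38.2%, against 13.2% of all tested genes). Its summed level of 10 red blood cell markers was 15768 FPKM, against 2634 to 12065 FPKM in the other WT buds and 7965 to 10166 FPKM in Lats1/2PanKO, and the part of this in its low values was not tested. Lats1/2PanKO 1 held 2 lowest values and no highest one.

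The noncoding RNAs, Meg3, Rian, Mirg, Airn and Kcnq1ot1, varied widely between WT buds. Meg3 was at 108, 123, 64.1, 36.6 and 133 FPKM in WT and at 116, 54.7 and 161 FPKM in Lats1/2PanKO. Airn, the antisense RNA that silences Igf2r in cis, was at 39.4, 43.6, 22.9, 16.6 and 32.0 FPKM in WT and at 27.0, 20.04 and 29.99 FPKM in Lats1/2PanKO. Kcnq1ot1 was at 7.71, 8.38, 6.37, 2.64 and 9.30 FPKM in WT and at 7.79, 2.91 and 9.82 FPKM in Lats1/2PanKO. For each of them WT 4 was the lowest of all buds and Lats1/2PanKO 2 the lowest mutant bud, and the same held for Rian (54.4 and 75.4 FPKM) and Mirg (4.89 and 7.73 FPKM). The coding gene Rtl1, which lies antisense to the Meg3 and Rian transcripts, had this order too, at 1.61 FPKM in WT 4 and 3.20 FPKM in Lats1/2PanKO 2. The median coefficient of variation over WT buds was 36.3% for these 5 RNAs, 15.4% for the 25 imprinted genes averaging 10 FPKM or more in WT, and 9.28% for all 6930 genes above that level.

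H19 did not follow this order. Malat1, a noncoding RNA that is not imprinted and was picked after its values had been seen, did follow it. Malat1 was at 839.7, 887, 657, 424 and 994 FPKM in WT and 826, 536 and 839.7 FPKM in Lats1/2PanKO. Among 86 long noncoding RNA genes averaging 5 FPKM or more, WT 4 was the lowest bud for 27.9%, and for 19.8% Lats1/2PanKO 2 was also the lowest mutant bud. Among 8523 protein-coding genes at that level, the shares were 11.6% and 6.48%. The noncoding RNAs named above, Malat1 included, were not taken out of the long noncoding set, so its shares are not independent of them. The log2 differences between genotypes for Meg3, Airn and Kcnq1ot1 (0.26, -0.20 and -0.05) were smaller than their SEs of 0.46, 0.29 and 0.40, whereas those for Rian and Mirg (0.47 and 0.37) exceeded their SEs of 0.29 and 0.31.

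**Figure D4:**
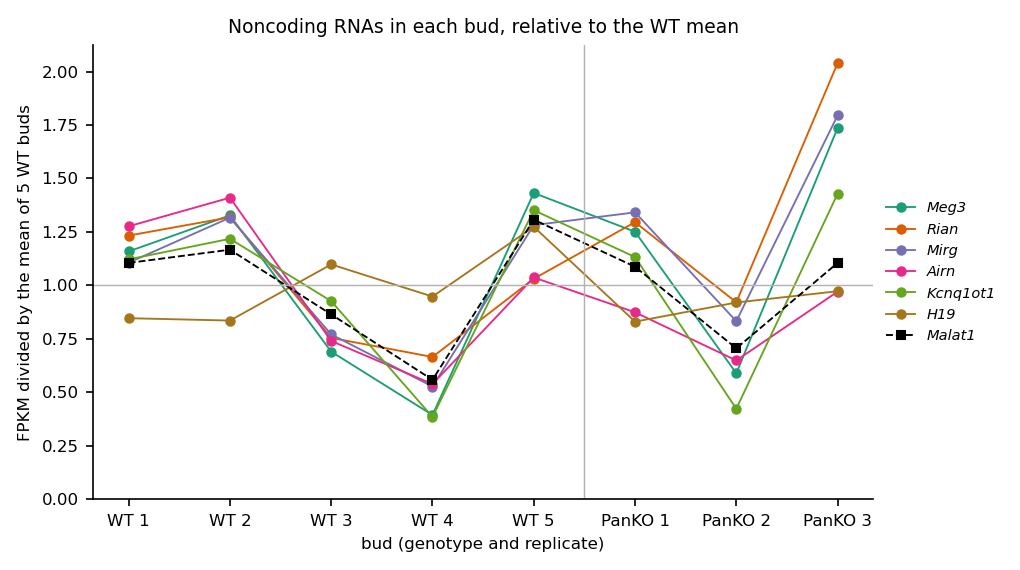
FPKM of Meg3, Rian, Mirg, Airn, Kcnq1ot1 and H19, and of Malat1 for comparison, in each of the 8 buds, divided by the mean of the 5 WT buds. Lines join the points of a gene only to help the eye. In WT 4 the first 5 RNAs stand at 0.384 to 0.665 of their WT mean and in Lats1/2PanKO 2 at 0.422 to 0.920, while H19 stands at 0.947 and 0.920.

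Among coding genes of these domains, Igf2r, Dlk1 and Rtl1 were also lowest in WT 4, at 87.2, 59.6 and 1.61 FPKM, though Dlk1 was at 59.7 FPKM in WT 5. Of the mutant buds, Lats1/2PanKO 2 had the lowest Dlk1 and Rtl1, at 71.9 and 3.20 FPKM. Igf2r exceeded Airn by a factor of 2.94 to 5.24 in WT and 2.92 to 4.86 in Lats1/2PanKO, with the highest ratio of each genotype in WT 4 and Lats1/2PanKO 2. Cdkn1c exceeded Kcnq1ot1 by a factor of 17.6 to 67.5 in WT and 23.9 to 65.8 in Lats1/2PanKO, with the same buds at the top. Igf2r and Airn overlap on opposite strands (chr17:12741311-12859884 for Airn). The methods name a strand setting for the alignment and none for the FPKM step, and how well the pair is separated was not checked. In the table, 34 rows of microRNA genes lie within 8 of the 37 genes, mostly Rtl1, Mirg and Rian, and 27 of these rows were listed at 0 in all libraries.

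Genes that work with or lie beside the imprinted genes were read from the fit over all genes. Of 20 other genes of the IGF axis 16 were tested, and 0 were called, with 2 higher and 3 lower at an unadjusted p under 0.05, or 31.2%, against 11.3% of all tested genes (median log2 difference -0.06). Irs1, an adaptor of the insulin and IGF receptors, was at 6.65 to 9.35 FPKM in WT and 5.40 to 6.34 FPKM in Lats1/2PanKO (log2 difference -0.34, adjusted p = 0.351, limma). Igfbp3, a gene for an IGF binding protein, was at 40.7 to 83.4 FPKM against 27.4 to 43.9 FPKM (-0.64, adjusted p = 0.351, limma), and the adaptor gene Irs4 at 3.18 to 5.31 against 5.08 to 8.06 FPKM (0.47, adjusted p = 0.378, limma). The most abundant, Igfbp4 and Igfbp5, had log2 differences of -0.41 and -0.45 and adjusted p-values of 0.435 and 0.670 (limma), but without Lats1/2PanKO 3 the differences were -0.18 and -0.003.

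Of 18 genes that set or maintain imprints 16 were tested, 15 of them with a lower mean in Lats1/2PanKO (13 without Lats1/2PanKO 3) and 0 called, with a median of -0.06. Over all 13777 tested genes, 7316 had a lower mean. Only 1 of the 16 had an unadjusted p under 0.05 (6.25%, below the 11.3% of all tested genes). It was Smchd1, a chromatin protein gene of imprinted clusters and the inactive X chromosome. Smchd1 was at 44.9 to 48.1 FPKM in WT and 41.1 to 45.2 FPKM in Lats1/2PanKO (-0.13, adjusted p = 0.425, limma). Zfp57 was at 22.9 to 31.5 against 18.9 to 25.5 FPKM (-0.22, or -0.09 without Lats1/2PanKO 3, adjusted p = 0.550, limma) and Dnmt3a, a gene for a DNA methyltransferase, at 48.3 to 54.9 against 45.4 to 51.9 FPKM (-0.12, adjusted p = 0.553, limma). The most abundant of them were Trim28, the cofactor of ZFP57, at -0.08, and the maintenance methyltransferase gene Dnmt1, at -0.04.

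Of 32 further imprinted genes 26 were tested and 0 called, with 2 higher and 1 lower at an unadjusted p under 0.05 (11.5%, against 11.3% of all tested genes) and a median of -0.06 that was -0.02 without Lats1/2PanKO 3. Gab1, a docking protein gene of growth factor receptors, was at 16.4 to 18.98 FPKM in WT and at 23.1, 19.4 and 25.6 FPKM in Lats1/2PanKO, all above WT (0.35, adjusted p = 0.238, limma). Osbpl5, a lipid transfer protein gene, was at 3.97 to 5.30 against 5.18 to 8.46 FPKM (0.39, or 0.21 without Lats1/2PanKO 3, adjusted p = 0.387, limma). Copg2, a coat protein gene that overlaps the end of Mest, was at 105 to 131 FPKM in WT and 80.6 to 110.4 FPKM in Lats1/2PanKO (-0.34, adjusted p = 0.306, limma), beside -0.29 for Mest. Nap1l4, the most abundant of them and a nucleosome assembly protein gene, had a log2 difference of -0.06.

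Within 200 kilobases of the 37 genes lay 189 others, of which 92 were tested and 0 called, with 4 higher and 6 lower at an unadjusted p under 0.05 (10.9%, against 11.3% of all tested genes) and a median log2 difference of 0.02. The 189 include microRNA rows that lie inside the 37 genes, and 69 of the 189 were at 0 in all libraries. Some tested microRNA rows, such as Mir432, were above 0 in only 1 library. Cpa1, a carboxypeptidase gene of the acinar cell beside Mest, was at 7.90 to 26.0 against 15.9 to 35.3 FPKM (0.40, or 0.04 without Lats1/2PanKO 3, adjusted p = 0.745, limma). Casd1, beside Sgce, was at 21.6 to 27.0 against 15.3 to 21.8 FPKM (-0.37, adjusted p = 0.292, limma). Ins2, the insulin gene next to Igf2, was at 0.671 to 4.81 FPKM in WT and 2.53 to 5.66 FPKM in Lats1/2PanKO (0.40, or 0.12 without Lats1/2PanKO 3, adjusted p = 0.771, limma), and Kcnq1 was at 0.445 to 0.811 against 0.132 to 0.550 FPKM (-0.17, adjusted p = 0.754, limma).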

How the data were processed

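RNA-seq libraries from 8 single E11.0 buds were compared, 5 WT and 3 Lats1/2PanKO, grouped by the sample titles. Per the labels and methods, the authors trimmed reads with cutadapt 1.12, aligned them by strand to GRCm38 with TopHat 2.1.0 and derived FPKM from the alignments with Cufflinks 2.2.1. The deposited FPKM values, said to be quantile normalized, do not share a distribution between columns and were used as deposited. FPKM carry no counts, so no count model was used and depth was read from single-exon genes.

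The 13777 genes averaging 0.5 FPKM or more were tested with limma 3.58.1 in R 4.3.3, with a mean-variance trend on log2(FPKM + 1) and Benjamini-Hochberg adjustment at 0.05. Single genes were also tested by exact two-sided permutation of all 56 choices of 3 buds. On simulated data, the script was tested with known changes. The imprinted genes and the other lists were chosen with earlier results of these data known. Every imprinted gene is named. Full values are given for the 8 most abundant tested ones, those with an unadjusted p under 0.05 and those without overlap, and of other lists at most the 3 genes with the smallest p and the 2 most abundant. Neighbours named are Ins2, Kcnq1, Cpa1 and at most 3 by p, of which 1 is not reported here. Blcap and Herc3, the hosts of Nnat and Nap1l5, and Malat1 were picked after their values had been seen.

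The fit was repeated with 0.1 FPKM added in place of 1, with a filter at 2 FPKM and without one, after quantile normalization or scaling by median ratios, with array weights, with no trend, with a replicate block, and without each library. Start-site windows came from RefSeq on GRCm38.p6, and coordinates of genes from the RefSeq annotation of the same assembly, counted from 1. Plots were made in matplotlib 3.10.9 under Python 3.11.15.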

Additional observations from a re-analysis of the deposited data

Results flagged for a closer look

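Snurf was the only one of the 37 imprinted genes in which 1 WT bud stood apart from the other 4. WT 5, at 2.53 FPKM, was separated from the next bud by 0.738 of the WT range of Snurf, above Dixon's critical value of 0.71 for 5 libraries. Chance flags about 1 in 20 groups. Lats1/2PanKO was not examined in this way, because it holds 3 buds.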

How the results depend on the processing

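Across 542 fits of single imprinted genes under 16 alternatives, 1 passed an adjusted p of 0.05, Ndn with array weights (0.0286), so that the number called went from 0 to 1 there and was 0 under every other alternative. Over all genes, the main number called was 2, and it was 18 with a pseudocount of 0.1, 174 with array weights, 1 without the trend, and 0 to 69 when a library was left out, the highest without Lats1/2PanKO 2. With the replicate number as a block, 1 gene was called. The numbers are not known to pair buds, since the deviations of same-numbered buds correlated by 0.0855, -0.0969 and 0.0685, and no call for an imprinted gene changed under the block. Imprinted genes at an unadjusted p under 0.05 numbered 3 to 9 when a library was left out, the lowest without Lats1/2PanKO 3, and those without overlap 3 to 8. The neighbours' median log2 difference was -0.0013 after quantile normalization, -0.00087 with array weights, -0.033 with the replicate block and -0.012 to 0.018 when a library was left out. The sign held in all alternatives for 22 imprinted genes and turned in at least 1 for 12 (Cdkn1c, Gnas, Grb10, Kcnq1ot1, Magel2, Meg3, Mkrn3, Peg10, Phlda2, Plagl1, Snrpn and Snurf). The cause of these changes was not tested. With a mean under the filter of 0.5 FPKM, Slc22a18, Dio3 and Ascl2 were taken as too low to compare.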
